A study of Mus musculus with 7 samples.

Results

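The cytosolic ribosome is built from ribosomal RNA and a fixed set of proteins, named Rps in the small subunit and Rpl in the large subunit. Their genes belong to the most constantly transcribed genes of a cell, and their promoters are usually open in every tissue; the mRNAs begin with a pyrimidine tract, called the TOP motif, through which growth signals control their translation. The pancreatic acinar cell, which exports large amounts of digestive enzyme, is rich in ribosomes. A few family members are tissue-restricted second copies, such as Rpl3l of striated muscle and Rpl10l and Rpl39l of the testis.

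The set described here holds the 78 protein-coding genes of 21627 whose symbol is Rpl or Rps plus a number, with no ending other than the letters a, x or l, 30 of the small and 48 of the large subunit, on 19 chromosomes. Accessible chromatin was mapped by ATAC-seq, in which Tn5 transposase cuts and tags open DNA; the cells were epithelium purified out of digested pancreas from wild-type C57BL/6J mice. The groups were untreated mice and mice at days 1, 7 and 28 after caerulein, a cholecystokinin analogue that provokes transient pancreatitis; each group gave 1 library and 1 peak list, so no difference between groups has a replicate check, and no p-value is given. The 3 later lists share the same untreated library as their control. The sources used here do not give sex, age or how many mice stand behind a library. The other 3 samples, DCLK1-positive epithelium from Dclk1-DTR-ZsGreen mice, were not analysed here.

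A start peak is a peak whose summit lies within 1 kb of an annotated transcript start. RefSeq listed a start and strand for 59 of the 78 genes; for the other 19 either end of the gene span was accepted. Fold is the authors' fold enrichment at the summit, a value of the peak within its own list. Between 130149 and 164684 peaks per list lay on the autosomes and X. They differed in enrichment: in regions shared by all 4 lists the median of fold minus 1 was 7.40 in the untreated library and 11.5 to 16.6 in the others. Folds are therefore read as ranks within a list and not as levels between lists.

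The promoters of 8 genes are shown. They are those of the 3 strongest untreated start peaks, Rps21, Rpl37 and Rpl15, and of the 5 genes with a listed start that lacked a start peak in at least 1 list. Of these 5, Rpl41 was not closed. A strong peak covered its start in each list, with folds of 93.3, 106.2, 102.9 and 143.9, but the summit lay more than 1 kb away. Each line gives 100 bases before the RefSeq start and the 15 bases from it, on GRCm38.p6, 5′ to 3′ on the gene's strand. Capitals mark matches on either strand to CCGGAAG (the core bound by ETS factors), GGGCGG (Sp and KLF factors) or CCAAT, and on the sense strand near the start to CTTTCC.

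Rps21, chr2:180257279-180257393, + strand: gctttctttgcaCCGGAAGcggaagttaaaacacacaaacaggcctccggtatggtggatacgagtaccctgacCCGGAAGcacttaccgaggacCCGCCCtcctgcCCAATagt
Rpl37, chr15:5116513-5116627, + strand: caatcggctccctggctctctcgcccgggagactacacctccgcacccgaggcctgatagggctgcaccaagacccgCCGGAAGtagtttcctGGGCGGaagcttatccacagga
Rpl15, chr14:18270972-18271086, - strand: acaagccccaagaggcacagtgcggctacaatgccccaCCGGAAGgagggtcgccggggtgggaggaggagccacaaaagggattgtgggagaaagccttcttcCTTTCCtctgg
Rpl41, chr10:128549154-128549268, - strand: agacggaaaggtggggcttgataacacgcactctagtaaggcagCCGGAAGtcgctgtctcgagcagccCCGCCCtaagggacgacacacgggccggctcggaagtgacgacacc
Rpl39l, chr16:10170128-10170242, + strand: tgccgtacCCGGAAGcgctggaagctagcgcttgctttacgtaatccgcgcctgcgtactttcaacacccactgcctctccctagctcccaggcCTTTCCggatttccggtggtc
Rpl10l, chr12:66284387-66284501, - strand: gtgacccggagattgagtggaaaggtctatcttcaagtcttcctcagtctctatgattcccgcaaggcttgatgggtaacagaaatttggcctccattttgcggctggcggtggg
Rpl3l, chr17:24727726-24727840, + strand: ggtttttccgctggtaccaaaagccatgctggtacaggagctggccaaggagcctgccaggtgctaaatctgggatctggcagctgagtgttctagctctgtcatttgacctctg
Rpl32l, chr10:20208339-20208453, + strand: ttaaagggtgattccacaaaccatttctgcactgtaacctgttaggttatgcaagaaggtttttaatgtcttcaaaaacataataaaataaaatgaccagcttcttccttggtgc

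Rps21, Rpl37 and Rpl15 each held the ETS letters in this window, and so did Rpl41 and Rpl39l. The printed windows of Rpl10l, Rpl3l and Rpl32l held none of the letters searched. In the whole 300 base promoter, however, Rpl10l held GGGCGG on one of the strands and Rpl32l held TATAAA, while Rpl3l held none. The GC content of the whole 300 base promoter was 60.7, 67.3 and 63.7% at Rps21, Rpl37 and Rpl15. It was 49.3% at Rpl41, 52.7% at Rpl39l, 52% at Rpl10l, 54.7% at Rpl3l and 34.7% at Rpl32l.

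Ribosomal protein gene starts were open throughout. A start peak was present at 71 of the 78 genes in all 4 lists, 91.0% (exact binomial 95% interval 82.4 to 96.3, counting error only), where 61.0% of all protein-coding genes had one. The untreated list held start peaks of 73 members, and the lists of days 1, 7 and 28 held 72, 73 and 73, beside 66.7, 66.0, 66.8 and 65.2% of all genes. All 30 small subunit genes had a start peak in every list. In the large subunit 41 of 48 did. The genes that lacked one in some list were Rpl3l, Rpl10l, Rpl39l, Rpl32l, Rpl41, Rpl7 and Rpl17. At Rpl41, Rpl7 and Rpl17 strong peaks still lay on or in the gene, as described below.

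**Figure D1:**
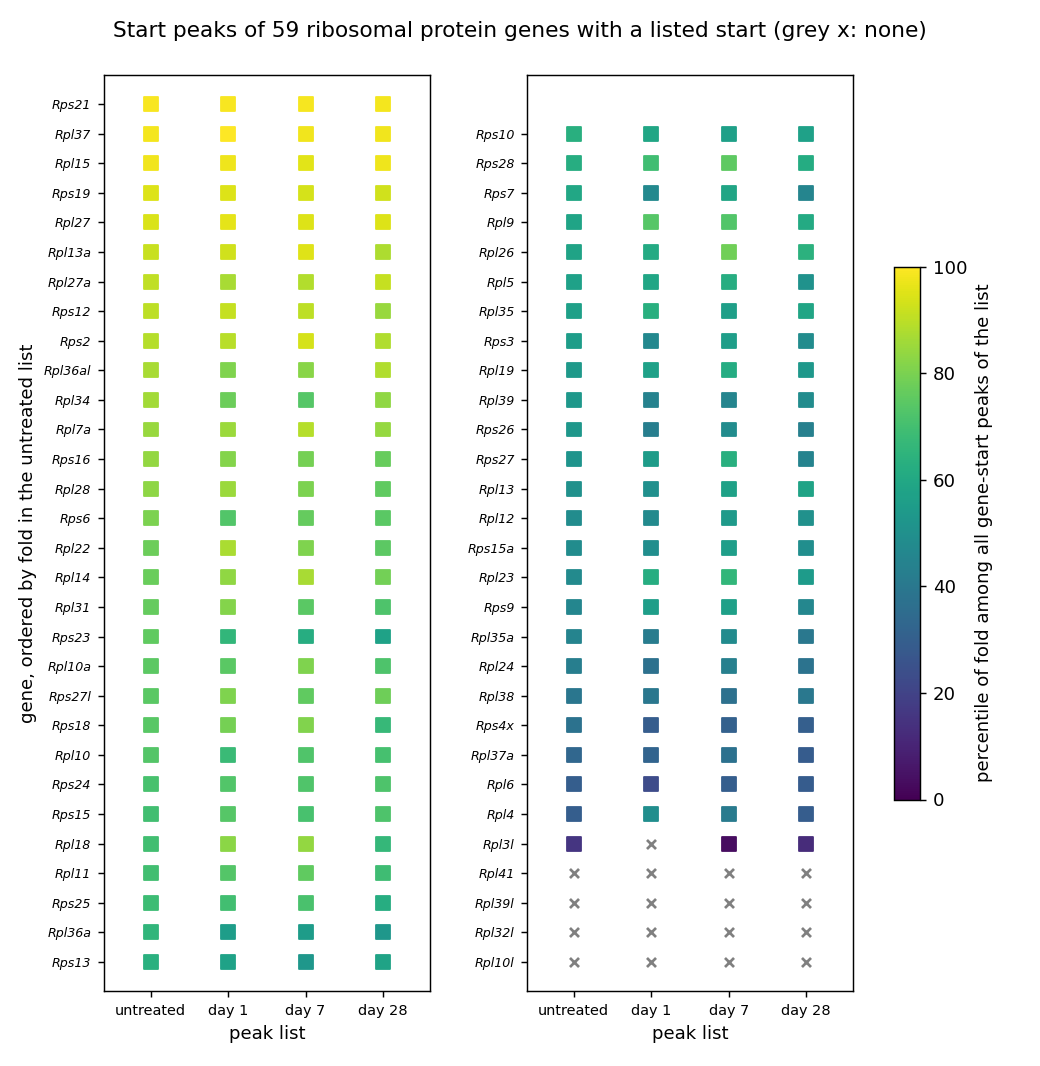
Start peaks of the 59 genes with a listed start in the 4 peak lists, ordered by fold in the untreated list. The colour is the percentile of a gene's strongest start peak among all gene-start peaks of the same list, and a grey cross is a gene without a start peak; 54 genes have a square in all 4 columns, and Rps21, Rpl37 and Rpl15 stay above the 95th percentile in each.

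The strongest untreated start peaks that the members held were also there later. Of the 73, a peak overlapped 72 at day 1, 73 at day 7 and 73 at day 28. Over all genes 5.81, 3.76 and 4.47% of the strongest untreated start peaks had no overlapping peak at those days. The gene without one at day 1 was Rpl3l. In the other direction, the strongest later start peak overlapped no untreated peak only at Rpl17 at day 28, with a fold of 4.83 and a width of 188 bp. Over all genes this held for 834 of 14272 strongest start peaks at day 1, 626 of 14439 at day 7 and 330 of 14097 at day 28.

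The members' start peaks ranked in the upper part of each list. Their median fold was 53.2 in untreated epithelium, against 35.9 for all genes with a start peak. At day 1 the 2 medians were 70.6 and 48.2, at day 7 they were 79.5 and 51.6, and at day 28 they were 76.9 and 57.9. In the untreated list 57 of 73 members lay above the all-gene median, and 53 of 72, 58 of 73 and 52 of 73 did so at days 1, 7 and 28. Above the 90th percentile of all gene-start peaks lay 10, 9, 10 and 8 members, or 13.7, 12.5, 13.7 and 10.96% of those with a peak, near the share that defines this percentile. The members thus lay mostly above the middle of the distribution. Their peaks were also slightly broader, with median widths of 1367, 1502.5, 1384 and 1399 bp against 1221, 1371, 1291 and 1306 bp.

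**Figure D2:**
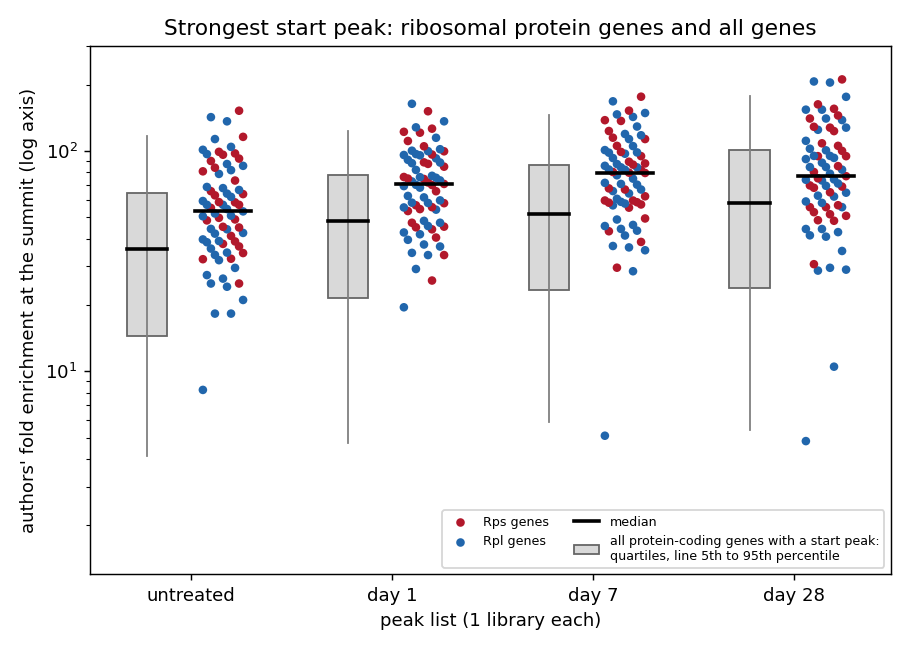
Fold enrichment (log axis) of the strongest start peak of each ribosomal protein gene, with Rps genes in red and Rpl genes in blue, beside a grey box with the quartiles, median and 5th to 95th percentile of all protein-coding genes with a start peak. In the untreated list the members' median is 53.2 and that of all genes 35.9, and each list keeps its own scale.

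The same 3 genes held nearly all of the top places. Rps21, a small subunit protein, had folds of 152.4, 151.6, 176.5 and 211.5 in the untreated, day 1, day 7 and day 28 lists. Among the 71 genes with a start peak in every list it ranked 1, 2, 1 and 1. Its untreated peak spanned chr2:180255705-180257905, with the summit 178 bp from the start. Rpl37, a large subunit protein, had folds of 142.5, 163.9, 168.2 and 206.9 and ranked 2, 1, 2 and 2. Rpl15 had folds of 136.4, 136.5, 148.8 and 204.6 and ranked 3, 3, 4 and 3. The order at the top was thus nearly the same in each library. The untreated peaks of Rpl37 and Rpl15 also covered the starts of Card6 and Nkiras1. Rps19, the gene most often mutated in Diamond-Blackfan anaemia, followed at ranks 4, 6, 7 and 5, and Rpl27 at 5, 4, 6 and 4. Rpl13a was among the 5 strongest at day 7 (rank 5).

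At the weak end stood Rpl6, with folds of 18.3, 19.5, 28.5 and 28.7. It shared rank 70 with Rpl4 in the untreated list and ranked 71 in the other 3. Rpl37a, with 21.1, 29.1, 37.1 and 29.0, ranked 69, 69, 67 and 70. Rps4x, the X-linked gene of a small subunit protein, had 25.0, 25.8, 29.5 and 30.7 and ranked 66, 70, 70 and 68. The peaks of Rpl6, 834 to 939 bp, and of Rps4x, 789 to 978 bp, were narrower than the members' median width in each list. Rpl32 ranked 68 in the untreated list, Rpl38 ranked 68 at day 7, and Rpl23a ranked between 66 and 69 in each list.

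The order of the 71 genes was similar from list to list. Spearman's rho was 0.94 between the untreated and day 1 lists, 0.92 with day 7 and 0.97 with day 28, as a description over genes that share each library. Over the 13190 genes with a start peak in all 4 lists the values were 0.85, 0.91 and 0.97. The range of a gene's rank over the 4 lists had a median of 7 places, and the widest was 22.

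Some genes whose place moved by many ranks are given here, chosen after their values were seen. The range of Rpl4, 16 places, was passed by other genes, such as Rpl23 with 20. Rpl26 ranked 46, 43, 24 and 36, the widest range. Rps23, a protein of the decoding centre, ranked 24 in the untreated list and 40, 43 and 45 later. Rpl21 moved the other way at day 1, from rank 53 to 32. Rpl4, which carries 5 small nucleolar RNA genes in its span, ranked 70 in the untreated list, 54 at day 1, 65 at day 7 and 69 at day 28. Its untreated peak also covered the start of Zwilch, and its summit had an offset of -553 bp at day 1 against 100 to 105 bp in the other 3 lists. With 1 library for each list, the spread of such ranks between replicates is unknown.

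Several members are known for functions outside the ribosome's core work, and they are given here for that reason, outside the rule for named genes. Rps6, the substrate of S6 kinase, had folds of 73.5, 74.7, 89.5 and 100.2 and ranks 20, 31, 25 and 23. Rpl5 and Rpl11 bind 5S RNA and restrain Mdm2 when ribosome assembly fails. Rpl5 had folds of 42.5, 58.3, 66.9 and 59.0, and Rpl11 had 57.0, 75.6, 87.3 and 88.6. Rps27a, which encodes ubiquitin fused to a small subunit protein, had folds of 45.0, 44.1, 43.2 and 65.0 and ranks 44, 59, 64 and 47. The untreated peak of Rps27a also covered the start of Clhc1. Rps14, whose loss underlies the anaemia of the 5q- syndrome, had folds of 58.7, 72.0, 80.3 and 80.3.

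The second-copy paralogs fell into open and closed ones. Rpl36al, an expressed copy of Rpl36a, had folds of 87.3, 88.1, 101.0 and 140.5, while Rpl36a itself, on X, had 52.1, 54.2, 57.8 and 62.2. Rps27l, a p53-responsive relative of Rps27, had 63.8, 87.4, 87.8 and 108.4, against 37.9, 53.4, 67.7 and 50.8 at Rps27. In both pairs the second copy had the higher fold in each list, but the untreated peaks of Rpl36al and Rps27 also covered the starts of Mgat2 and Rab13. Rpl10l and Rpl39l, the testis copies, had no peak with its summit in or within 2 kb of the gene in any list. Rpl32l, whose span lies inside Map7, had no start peak, and its sole region was an untreated peak of fold 3.79, 1318 bp from the start.

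Rpl3l, the striated muscle copy of Rpl3, had a weak start peak that was missing at day 1. The untreated peak, chr17:24727506-24727901, had a fold of 8.24, a width of 396 bp and a summit 175 bp from the start. No start peak was listed at day 1, the fold at day 7 was 5.10, and at day 28 it was 10.5. In the 3 lists that held it, this peak lay at percentiles 15.6, 3.17 and 12.2 of all gene-start peaks. The parent gene Rpl3 had folds of 50.9, 69.3, 64.2 and 82.3. Strong peaks at the far end of Rpl3l, with folds from 89.8 to 131.7, covered the start of the neighbouring gene Msrb1, 449 bp beyond it. Skeletal muscle marker genes had a start peak at 1, 1, 0 and 1 of 4 genes in the 4 lists; Acta1 and Ttn had none in any list. Their part in the Rpl3l result was not tested.

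At Rpl41, Rpl7 and Rpl17 strong peaks lay on or in the gene in lists where the summit rule gave no start peak. The start of Rpl41, the smallest ribosomal protein, was covered in each list by a broad peak of 2982 to 3486 bp with folds of 93.3, 106.2, 102.9 and 143.9. Its summit lay 1368 to 1414 bp from the Rpl41 start, over the next gene, Zc3h10, whose span begins 101 bp beyond Rpl41. At Rpl7 a broad peak covered the gene end in all lists. Its summit was 471, 399 and 404 bp from that end in the untreated, day 1 and day 7 lists and 1331 bp from it at day 28, towards the neighbour Rdh10, with a fold of 76.1. At Rpl17 a peak of fold 26.4, 40.3, 60.7 and 50.0 lay inside the span, 1570 to 1577 bp from the nearer end; no listed start was available for Rpl7 or Rpl17. When a peak interval over the start was counted in place of a summit near it, 73 genes were covered in all 4 lists.

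**Figure D3:**
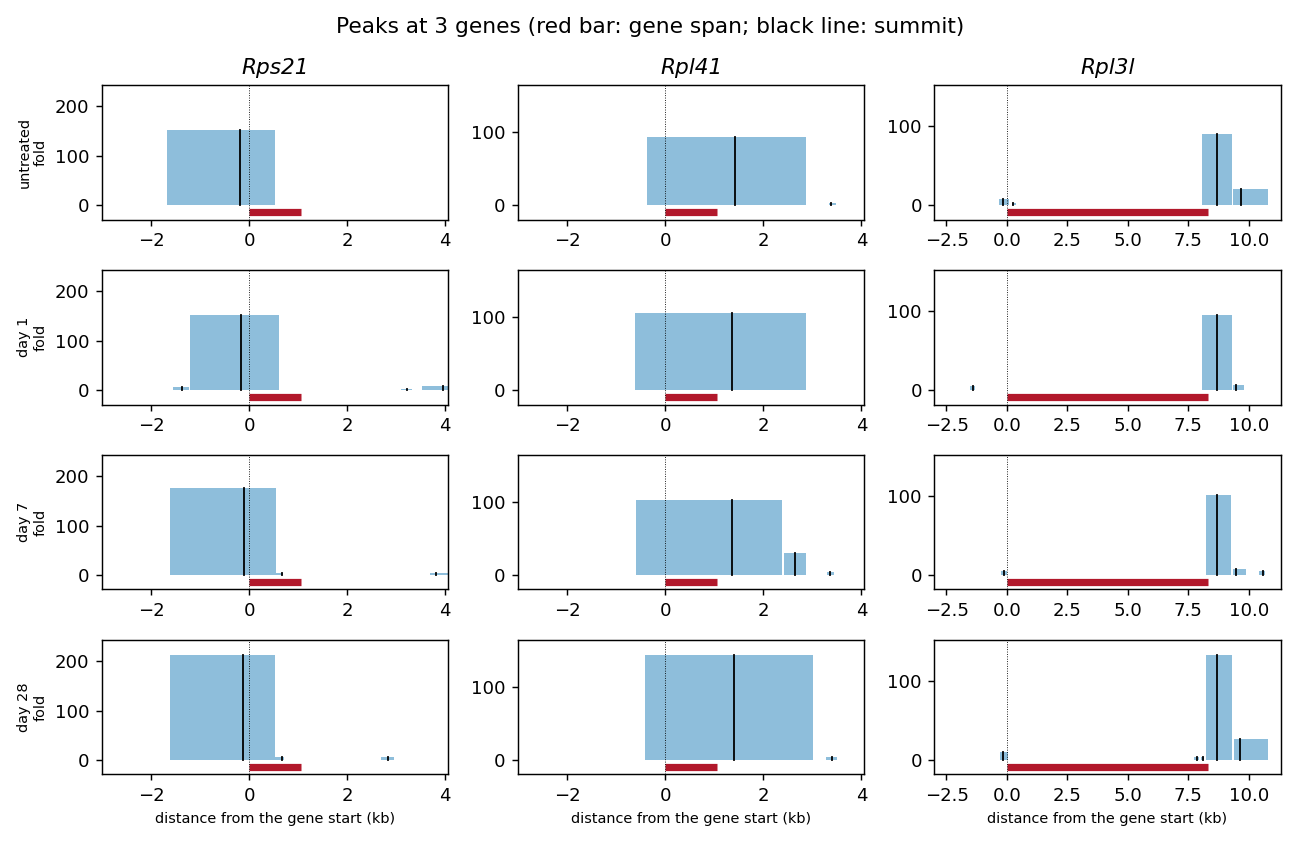
Peaks at Rps21, Rpl41 and Rpl3l in the 4 lists, with distance from the gene start in kb on the x axis (positive: into the gene) and fold on the y axis; each bar spans a peak and has the height of its summit fold, and the red bar is the gene span. Rps21 has its summit near the start in each list, the Rpl41 peak covers the start with a summit 1368 to 1414 bp away, and the small Rpl3l start peak is missing at day 1.

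Summits sat close to the annotated starts. Among the 55 members with a listed start and an untreated start peak, the median summit lay 28 bp upstream (a median offset of -28 bp), and 52 lay within 250 bp, 94.5%, against 81.1% of all genes. At days 1, 7 and 28 the shares of members were 94.4, 98.2 and 96.4%, against 79.9, 81.4 and 82.4%. Summits downstream of the start made up 36.4, 29.6, 32.7 and 29.1% of members and 38.8, 41.2, 42.4 and 40.3% of all genes. The members farthest from their start in the untreated list were Rpl38, with its summit 480 bp downstream, and Rps26, with an offset of -287 bp.

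**Figure D4:**
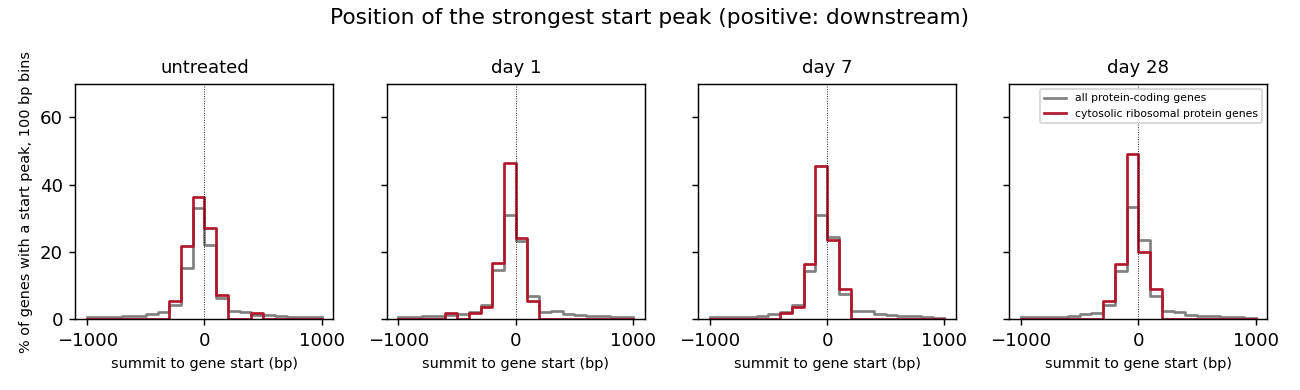
Distance in bp from the annotated start to the summit of the strongest start peak (negative: upstream), as the percentage of genes in 100 bp bins, for ribosomal protein genes (red) and all protein-coding genes (grey) in the 4 lists. In the untreated list 94.5% of members and 81.1% of all genes lie within 250 bp.

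Neighbouring genes share some of these peaks. Under 16 of the 73 untreated start peaks, 21.9%, lay the start of another protein-coding gene, against 15.4% over all genes. The broadest untreated peaks were those of Rpl7 (3029 bp, shared with Rdh10), Rpl10a (2873 bp), Rpl27a (2639 bp), Rps18 (2481 bp, shared with Vps52) and Rpl36al (2328 bp, shared with Mgat2). For a shared peak the summit fold cannot be assigned to either gene.

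The 300 base promoters, 250 bases before to 50 after the start, were searched for letters that factors of ribosomal protein promoters are known to bind; both strands were read and matches could overlap. CCGGAAG was present at 23 of the 59 members with a promoter sequence, 38.98%, against 13.1% of 17273 genes. AAGATGG, the core bound by YY1, was present at 9 members, 15.3% against 7.24%. CTTTCC or CTTTTC, read on the sense strand within 15 bases of the start where a TOP tract would begin, was present at 15 members, 25.4% against 2.65%. Members with it included Rpl15, Rpl13a, Rps12, Rpl28 and the closed testis copy Rpl39l. GGGCGG was found at 57.6% of members and 49.8% of genes, CCAAT at 30.5 and 42.7%, CACGTG at 10.2 and 9.02%, TATAAA at 10.2 and 14.9%, and the NRF1 motif at 6.78 and 7.25%. These letters are a description of the promoters and show no binding. The median GC content was 57.0% at members, 57.3% at all genes and 62.0% at genes with an untreated start peak. A further shared feature was the hosting of small nucleolar RNA genes, which guide rRNA modification: 27 of the 78 spans contained at least 1, 34.6%, against 1.72% of all protein-coding genes.

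Peaks away from the starts were shared between the untreated and a later list less often than start peaks. This held at the members and at all genes. Most of the members' peaks away from starts were still shared. Within 2 kb of the gene spans the 4 lists held 221, 208, 189 and 221 regions, of which 112, 97, 101 and 105 were start regions. Start regions had median folds of 37.4, 55.6, 59.6 and 58.2, and the remaining ones 4.61, 4.88, 5.78 and 5.82. A region was gained if it overlapped no untreated peak by 1 bp and lost if an untreated region overlapped no later peak.

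At day 1, 48 of 208 regions were gained, 23.1% (17.5 to 29.4), and 43 of 221 were lost, 19.5% (14.5 to 25.3). The percentages for regions within 2 kb of any protein-coding gene were 48.1 and 36.5%. With a floor scaled to each list's enrichment, chosen after seeing the data, day 1 gains were 18 of 147 and losses 65 of 221, so the balance between them turned. It also turned where shared regions needed summits within 250 bp of each other, with 62 gains and 74 losses. At day 7, 24 regions were gained, 12.7% (8.31 to 18.3), against 32.1%, and 50 were lost, 22.6% (17.3 to 28.7), against 31.9%. At day 28, 36 were gained, 16.3% (11.7 to 21.8), against 22.7%, and 26 were lost, 11.8% (7.83 to 16.8), against 26.1%. The excess of gains at day 28 was absent under that summit rule (49 gains, 50 losses), with a 5 kb window (48 and 49), and where a region needed a −log10 q of at least 5 in one list and no peak in the other (17 and 17). In each comparison the members' percentage was below that of all genes. The composition of the 2 sets differed: start regions made up 46.6 to 53.4% of the members' regions and 18.2 to 21.4% of those at all genes. Away from starts, 35.1% of the members' regions were gained and 29.4% lost at day 1, against 54.9 and 42.7%; at day 7 the values were 21.6 and 37.6%, against 37.1 and 37.2%, and at day 28 they were 25.0 and 17.4%, against 26.3 and 29.9%. Losses at day 7 and gains at day 28 away from starts were thus near the background.

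**Figure D5:**
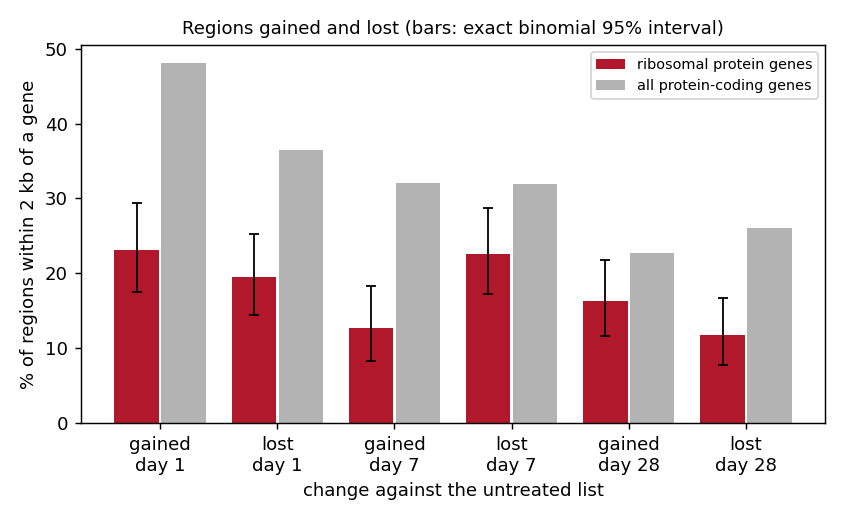
Percentage of regions within 2 kb of ribosomal protein genes (red, with the exact binomial 95% interval) and of all protein-coding genes (grey) that were gained or lost against the untreated list at days 1, 7 and 28. The members' values run from 11.8% for losses at day 28 to 23.1% for gains at day 1, each below the grey bar beside it.

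The gained and lost regions were weak. The gained ones had median folds of 3.78, 4.57 and 3.97 at days 1, 7 and 28, and none exceeded 8.98. The lost ones had median untreated folds of 3.79, 3.62 and 3.46, and none exceeded 10.1. Median widths ran from 160.5 to 221.5 bp. Regions that overlapped between the lists had median folds of 27.3, 25.8 and 15.9 in the later lists. Of the start regions, 9 of 97, 5 of 101 and 7 of 105 were gained (9.28, 4.95 and 6.67%), beside 17.6, 13.1 and 9.58% at all genes, and 11, 9 and 7 of 112 were lost (9.82, 8.04 and 6.25%), beside 13.2, 11.8 and 11.8%. Apart from both Rpl3l peaks lost at day 1 and the Rpl17 peak gained at day 28, these were secondary peaks at genes whose stronger start peak was kept.

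Changed regions were spread over many genes. The 48 gains of day 1 lay at 37 genes, with 3 each at Rpl38 and Rps15a and 2 each at Rps6, Rpl31 and Rps12; the highest folds were 8.98 inside Rpl35 and 8.67 beside Rpl7a. The 43 losses lay at 27 genes, with 3 each at Rpl18, Rps9 and Rpl3, and Rpl36 held the strongest, of fold 10.1. At day 7 Rps16 gained 3 regions and Rpl31, Rpl10a, Rpl38 and Rps15a 2 each, while Rpl18 lost 4, Rpl3 lost 3, and Rpl32 and Rpl35 lost 2 each. At day 28 Rpl12, Rpl18 and Rpl13a gained 3 each and Rps16 and Rpl37a 2 each; Rpl18, Rpl32 and Rpl22 lost 2 each, and Rps19 lost 1.

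Merged over the 4 lists, the members' regions came to 244, of which 123, 50.4%, were present in every list, against 28.9% of the 142617 merged regions at all protein-coding genes. Of the 103 that included a start peak, 81 were present in every list. The matching count for start peaks of all genes was not made, so this value has no background beside it. The most frequent other pattern was presence at day 1 alone, with 33 regions, 13.5% against 21.5% at all genes. Presence at day 28 alone held 19 regions, 7.79% against 5.49%. Presence in the untreated and day 28 lists, but not at days 1 and 7, held 18, 7.38% against 5.55%, and presence in the untreated list alone held 15, 6.15% against 10.8%.

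Genes with related functions also had start peaks. The 10 other cytosolic ribosomal protein genes outside the symbol rule, among them the stalk genes Rplp0, Rplp1 and Rplp2, the laminin receptor gene Rpsa and Rack1, all had one in each list, with a median untreated fold of 59.2. So did all 16 translation factor and other TOP mRNA genes, such as Eef1a1 and Eef2, with a median untreated fold of 87.3, and all 20 ribosome biogenesis genes, such as Ncl, Fbl and Ubtf, with 47.5. In the same libraries most sets of marker genes differed in their start peaks from list to list. Of 9 acinar markers 9, 5, 7 and 8 had a start peak in the untreated, day 1, day 7 and day 28 lists, with Cel, Cpa1, Gp2 and Pnlip lacking one at day 1. Of 5 duct markers 5, 3, 5 and 4 did, of 5 fibroblast markers 4, 5, 5 and 5, of 4 endothelial markers 4, 3, 2 and 2, and of 5 leukocyte markers 1, 2, 1 and 1, with Ptprc, Itgam and Cd3e at 0 in each. All 3 tuft cell markers had a start peak in each list. Changes in cell makeup and in chromatin within a cell type cannot be told apart in these bulk libraries.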

How the data were processed

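Peak lists from ATAC-seq of purified pancreatic epithelium, 1 library per group, were used for 4 of 7 samples; the titles gave the groups. MACS2 2.1.0.20150731, Bowtie2 2.2.6, deepTools, SAMtools and cutadapt, with build GRCm38 (mm10), are listed in the submitters' processing notes. Tool roles, options, read filters and the handling of reads that map to more than 1 place were not given in the sources used. The column read as fold in the narrowPeak layout is the authors' ratio of enrichment. The −log10 p and −log10 q are also the authors' values, the deposited score is 10 times the −log10 q, and the deposited summit offset gave each summit.

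Gene spans came from RefSeq GRCm38.p6, and starts, strands and promoter sequences from a RefSeq table of that build, which is not complete. All linking was done in Python 3.11.15 (pandas 2.3.3, numpy 2.4.6, scipy 1.17.1); overlap counts equalled those of bedtools 2.31.1, and the functions were tested on simulated data with planted gains, losses and summits. Peaks were linked within 1 kb of starts and 2 kb of spans. Named genes were the 5 strongest and 5 weakest start peaks of each list, each gene lacking a start peak somewhere, the second-copy paralogs, the 5 broadest peaks, and up to 5 genes with the most gained or lost regions. Rps4l, also on that list, is not protein-coding in the table and was left out. Some genes that the rule takes in are not reported here by name. The genes and lists were chosen with earlier results of these data known. Alternatives covered windows, symbols, peak thresholds, overlap and enrichment floors. Read depth was not used.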

Additional observations from a re-analysis of the deposited data

How the results depend on the processing

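Counts of genes with a start peak kept within 1.5 times their value under all 50 alternatives run, and the rho of the members' order between the untreated and day 28 lists, 0.966, was 0.965, 0.969 and 0.965 under the 3 run, which were chosen after seeing the data, as were counts by peak interval, span end or listed starts only. Of 54 alternative counts of gained or lost regions 17 moved further. Inside the spans alone, gains at days 1, 7 and 28 were 25, 8 and 23 and losses 23, 31 and 16. With a 5 kb window, gains were 83, 34 and 48 and losses 80, 84 and 49. With summits within 250 bp counted as shared, gains at days 1, 7 and 28 were 62, 45 and 49 and losses 74, 75 and 50, so losses exceeded gains at each day. Where a region needed a −log10 q of 5 or more in 1 list and no peak at all in the other, gains and losses at day 28 were 17 and 17. With an enrichment-scaled common floor, added after seeing the data, day 1 gains were 18 and losses 65, so the balance at day 1 turned to losses here too; the same floor gave 12.2 and 29.4% of member regions against 36.9 and 44.2% at all genes. That floor left all 221 untreated member regions in place and took the day 1 regions from 208 to 147. For the other moves the cause was not tested. No paired analysis was possible because each group has 1 library. Weak regions near a list's lowest fold, 2.36 to 2.95, are the least certain.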

Other observations

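The 78 mitochondrial ribosomal protein genes, whose products serve the organelle's own ribosome, all had a start peak in each of the 4 lists. Their median folds were 37.5, 49.7, 51.2 and 55.5 in the untreated, day 1, day 7 and day 28 lists, and median widths 997.5 to 1101.5 bp. At 1 of the 78 genes, Mrps9, the span held a small nucleolar RNA gene.

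Ribosomal protein mRNAs have left many copies in the genome that lack the parent promoter. Of 303 pseudogenes named after these genes, 2 had a peak summit inside the span in the untreated list, 1 at day 1, 2 at day 7 and 2 at day 28, or 0.660, 0.330, 0.660 and 0.660%. Of all 9852 genes typed as pseudogenes, 2.57, 3.28, 2.52 and 2.52% did, over longer spans (a median of 909 bp against 526 bp). The copy with a summit in every list was Rpl21-ps10, and Rpl36-ps1 had one in the untreated, day 7 and day 28 lists. How reads from near-identical copies were counted is unknown here.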
